A study of Mus musculus with 31 samples.

Results

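The mitochondrial genome of the mouse carries 37 genes, and all 37 were present in the count tables as rows whose symbol starts with mt-, out of 38406 gene symbols. They comprise 13 protein-coding genes, 2 rRNA genes and 22 tRNA genes, and were chosen by symbol alone. The libraries are bulk RNA-seq of leukocytes, sorted as CD45.2-positive cells from AT3-OVA tumours, a triple negative mouse mammary line that carries ovalbumin. The line had been placed in the mammary fat pad of wild-type female C57BL/6 mice. Local radiotherapy was given with a 6 MeV electron beam through openings of a lead shield, with fractions 24 h apart. All mice, the mock groups included, were anaesthetised with ketamine and xylazine. Tumours were taken 5 or 13 days after the last fraction.

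At day 5 there were 6 libraries after 3 fractions of 4 Gy (3x4Gy) and 4 of their mocks (3x0Gy), and 6 after a single dose of 20 Gy (1x20Gy) and 4 of its mocks (1x0Gy). The day 13 groups are 7 libraries after 1x20Gy and 4 of its mock, 1x0Gy. Sample codes differ between the days, so day and experiment cannot be told apart and each day is described by itself. The labels do not say that each library came from a separate animal, so p-values measure the spread between these samples. In bulk libraries, fewer cells of a type and less RNA per cell cannot be told apart.

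Mitochondrial DNA is transcribed from both strands into long precursors, and the tRNA genes, which lie between most of the other genes, are cut out to release the mRNAs and rRNAs. The 13 proteins are subunits of respiratory complexes I, III and IV and of ATP synthase (complex V), in which they join subunits that the nucleus encodes. The rRNAs and tRNAs serve the ribosomes inside the organelle that translate those mRNAs.

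The 4 tRNA genes that were higher after 1x20Gy at day 13 lie in clusters of the mitochondrial genome, and are shown because the day 13 results turn on them. mt-Tq (glutamine) and mt-Tm (methionine) are neighbours between mt-Nd1 and mt-Nd2. mt-Tn (asparagine) and mt-Tc (cysteine) are neighbours between mt-Nd2 and mt-Co1, on either side of the origin of light-strand replication. Sequences are from GENCODE M21 (GRCm38), written 5′ to 3′ along the gene's own strand with the anticodon in capitals, at chrM:5192-5257 (minus strand) for mt-Tc, chrM:5089-5159 (minus) for mt-Tn, chrM:3772-3842 (minus) for mt-Tq and chrM:3845-3913 (plus) for mt-Tm.
mt-Tc: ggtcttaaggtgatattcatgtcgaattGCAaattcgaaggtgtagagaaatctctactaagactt
mt-Tn: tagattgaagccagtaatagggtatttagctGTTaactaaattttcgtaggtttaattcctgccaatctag
mt-Tq: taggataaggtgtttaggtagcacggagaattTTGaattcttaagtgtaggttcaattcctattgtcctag
mt-Tm: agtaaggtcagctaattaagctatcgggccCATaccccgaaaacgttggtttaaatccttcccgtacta

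A stretch of the mitochondrial genome from the end of mt-Co1 to within mt-Nd4 is also present in the nuclear genome, on chromosome 1, and this bears on which members could be counted. GENCODE M21 lists 7 transcripts there that match mitochondrial genes, among them Gm28661, which matched mt-Co2 over 681 bases with no difference, and Gm28439, which matched the first 876 bases of mt-Nd4 with none. Gm29216, at chr1:24615706-24616197 on the minus strand, matched bases 1054 to 1545 of mt-Co1 with 6 differences (98.8% identity). These were T1056A, C1057T, A1059G, A1060G, C1062A and A1066T, with the mt-Co1 base first and positions counted from the first base of the gene. The first 60 bases of that match are shown because all 6 differences fall within them, after which mt-Co1 and Gm29216 read alike to the end of the match. They lie at chrM:6381-6440 (plus) and chr1:24616138-24616197 (minus), with the differing bases in capitals.
mt-Co1: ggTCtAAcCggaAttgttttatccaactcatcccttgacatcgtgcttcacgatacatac
Gm29216: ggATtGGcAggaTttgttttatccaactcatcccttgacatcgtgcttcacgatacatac

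Members with nearly all of their sequence in the listed transcripts of that copy had few counts. Of all 75-base windows of mt-Co2, mt-Co3, mt-Atp6, mt-Nd3 and mt-Nd4l, between 97.8% (mt-Nd3) and 99.9% (mt-Co3) also occurred in a transcript outside the mitochondrial genome. The share was 61.5% for mt-Nd4 and 39.8% for mt-Co1, and 0% for mt-Nd1 and mt-Cytb. Over the 20 day 5 libraries the median level per gene length was 12108 counts per kb and per 1000000 gene counts for mt-Rnr2 and 6465 for mt-Rnr1. On the same scale it was 1355 for mt-Nd1, 1171 for mt-Cytb and 928 for mt-Co1, against 10.1 for mt-Co2, 5.396 for mt-Co3, 4.51 for mt-Atp6 and 1.01 for mt-Nd3. mt-Nd4l had 12 counts over all 31 libraries and none in 22 of them. The tables hold a summary line for reads placed at several positions, which stand outside the gene counts. How far such placement touches the 5 low rows was not tested, and they are given as deposited.

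**Figure D1:**
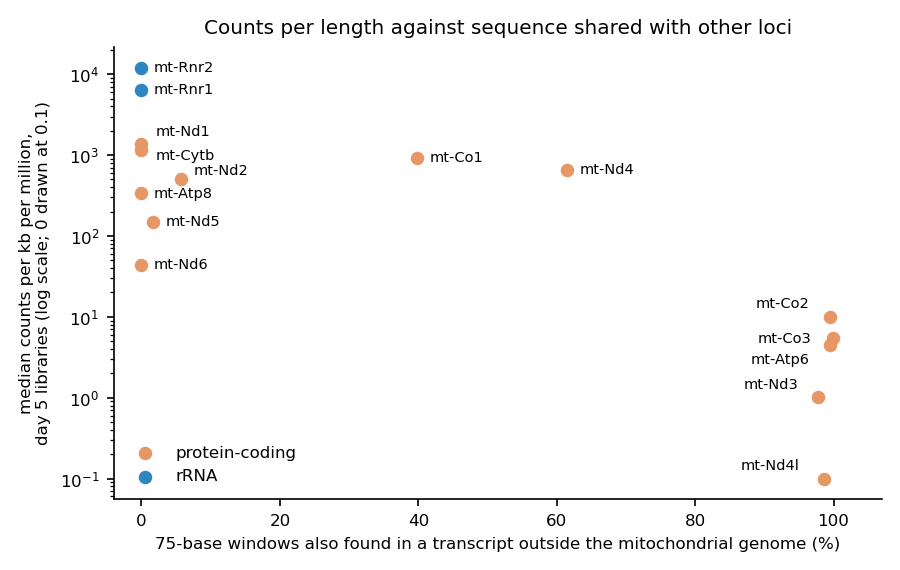
Median level at day 5 (vertical, log axis, counts per kb and per 1000000 gene counts, with a median of 0 drawn at 0.1) against the share of 75-base windows found in a transcript outside the mitochondrial genome (horizontal, percent). Each point is 1 of the 15 protein-coding and rRNA genes, and the 5 genes with shares of 97.8% or more lie at 10.1 or lower.

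After the filter on low counts, 27 members were tested at day 5 (11 protein-coding, 2 rRNA and 14 tRNA genes) and 23 at day 13 (11, 2 and 10). mt-Nd3, mt-Nd4l, mt-Tf, mt-Th, mt-Tk, mt-Tl2, mt-Tr, mt-Ts1, mt-Ts2 and mt-Ty were not tested on either day, nor were mt-Tg, mt-Ti, mt-Tl1 and mt-Tv at day 13. A gene was called at an edgeR quasi-likelihood adjusted p (Benjamini-Hochberg, over all genes tested) below 0.05. Levels are given as counts per 1000000 gene counts after TMM scaling (CPM), and fold changes as log2 of irradiated over mock.

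The libraries held 2641229 to 7541144 gene counts. The 6 leukocyte markers were all detected, with summed levels of 4137 to 5395 CPM after 3x4Gy against 2890 to 3745 CPM in 3x0Gy, and 4534 to 5639 CPM after 1x20Gy at day 13 against 4208 to 4620 CPM in its mock. All 8 fibroblast markers were detected, with summed levels of 18.1 to 53.6 CPM after 3x4Gy against 227 to 650 CPM in 3x0Gy, and 15.7 to 51.4 CPM after 1x20Gy at day 13 against 119 to 202 CPM in 1x0Gy. All 10 epithelial and tumour markers were detected too, with sums of 174 to 785 CPM after 3x4Gy against 499 to 1135 CPM in 3x0Gy, and 780 to 2300 CPM after 1x20Gy at day 13 against 709 to 951 CPM in 1x0Gy. For 8 of 9 macrophage markers, the number in the tables, the sum at day 13 was 6522 to 9038 CPM after 1x20Gy and 9085 to 11844 CPM in 1x0Gy. T cell markers (10 of 10) summed to 725 to 1421 CPM after 1x20Gy at day 13 and 453 to 762 CPM in 1x0Gy. At day 5, 3 of 5 erythroid markers were in the tables, with sums of 4.13 to 17.8 CPM after 3x4Gy against 26.0 to 60.9 CPM in 3x0Gy, and 13.1 to 27.0 CPM after 1x20Gy against 37.5 to 81.3 CPM in 1x0Gy. The 5 endothelial markers summed to 45.4 to 76.9 CPM after 3x4Gy against 23.8 to 39.4 CPM in 3x0Gy, and 35.7 to 69.0 CPM after 1x20Gy against 26.8 to 38.5 CPM in 1x0Gy. After 1x20Gy at day 5 the leukocyte sum was 4343 to 5367 CPM against 4115 to 4262 CPM in 1x0Gy, the fibroblast sum 14.3 to 72.3 CPM against 110 to 353 CPM, and the epithelial and tumour sum 158 to 534 CPM against 437 to 633 CPM. The part of these cell types in the results on mitochondrial genes was not tested.

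Mitochondrially encoded genes took 3.20% ± 1.13 of gene counts after 3x4Gy (SD, n = 6) and 2.65% ± 1.43 in 3x0Gy (n = 4). They took 2.93% ± 0.584 after 1x20Gy at day 5 (n = 6) and 3.79% ± 1.11 in 1x0Gy (n = 4). At day 13 the share was 1.74% ± 1.17 after 1x20Gy (n = 7) and 3.13% ± 1.05 in 1x0Gy (n = 4). In each of the 3 comparisons the ranges overlapped.

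The rRNAs made up most of that share and most of its spread. Of all mitochondrial counts, rRNA was 82.2% ± 5.91 after 3x4Gy against 60.8% ± 31.3 in 3x0Gy, and 73.9% ± 10.9 after 1x20Gy at day 13 against 83.3% ± 6.57 in its mock. Library 2 of 3x0Gy stood apart, with 0.611% of gene counts on mitochondrial genes and 0.0885% on their rRNAs. In it rRNA was 14.5% of mitochondrial counts, and 5.69% of its counted reads fell outside genes. Without it the difference in total share, 3x4Gy minus 3x0Gy, was -0.128 percentage points, against 0.552 with it.

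The protein-coding share was smaller and steadier. It was 0.509% ± 0.0689 after 3x4Gy and 0.702% ± 0.149 in 3x0Gy, 0.584% ± 0.0347 after 1x20Gy at day 5 and 0.675% ± 0.0855 in 1x0Gy, and 0.339% ± 0.0358 after 1x20Gy at day 13 and 0.466% ± 0.0688 in 1x0Gy. The tRNA share at day 13 ran from 0.00943% to 0.0123% of gene counts after 1x20Gy and from 0.00466% to 0.00780% in 1x0Gy, with no overlap. At day 5 it averaged 0.0101% after 3x4Gy and 0.00878% in 3x0Gy, and 0.00892% after 1x20Gy and 0.00996% in 1x0Gy.

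**Figure D2:**
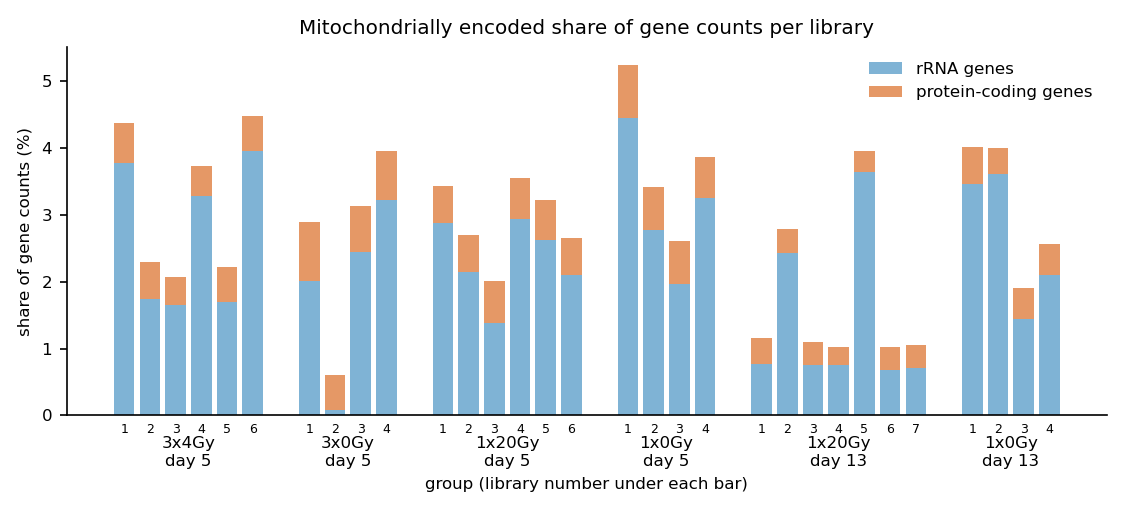
Share of gene counts on mitochondrial rRNA and protein-coding genes (stacked bars, percent) in each of the 31 libraries, with each irradiated group left of its mock. Library 2 of 3x0Gy has the smallest rRNA share, 0.0885%, and at day 13 libraries 2 and 5 of 1x20Gy stand above the other 5 of their group.

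mt-Cytb encodes cytochrome b, the only subunit of complex III that the mitochondrion itself encodes. After 3x4Gy its level was 656 CPM at the lowest, 947 at the median and 1261 at the highest, against 1772, 1807, 1473 and 1541 CPM in the 4 libraries of 3x0Gy. All 6 irradiated libraries lay below all 4 mocks. The mean was 982 ± 227 CPM after 3x4Gy (SD, n = 6) and 1648 ± 166 CPM in 3x0Gy (n = 4), a log2 fold change of -0.75 (SE 0.15), and mt-Cytb fell with an adjusted p of 0.00254 in edgeR's test. The call was lost with the share of reads outside genes as a covariate (log2 fold change -0.60, adjusted p 0.0511). That share was 24.2% ± 2.90 after 3x4Gy and 16.1% ± 7.32 in 3x0Gy. The mt-Cytb call held when any 1 library was left out, with edgeR adjusted p between 0.00146 and 0.0120.

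After 1x20Gy mt-Cytb was 1148 CPM at the lowest, 1405 at the median and 1584 at the highest at day 5, against 1642, 1428, 1455 and 1494 CPM in 1x0Gy. At day 13 these values were 672, 755 and 990 CPM after 1x20Gy, against 1155, 766, 1122 and 992 CPM in 1x0Gy. The groups overlapped on both days, and the log2 fold changes were -0.14 at day 5 (edgeR adjusted p 0.656) and -0.37 (SE 0.13) at day 13 (edgeR adjusted p 0.101). The test of the difference between the regimens' responses at day 5 gave -0.61 (SE 0.22) for mt-Cytb, 3x4Gy minus 1x20Gy, with an edgeR adjusted p of 0.772. A difference between the regimens was therefore not shown for mt-Cytb.

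Of the 7 mitochondrially encoded subunits of complex I, mt-Nd1, part of the membrane arm, was called once. Its level after 3x4Gy was 909 CPM at the lowest, 1124 at the median and 1236 at the highest, against 1492, 1061, 1557 and 1684 CPM in 3x0Gy. Library 2 of 3x0Gy lay inside the irradiated range and the other 3 mocks above it. mt-Nd1 fell by 0.41 on the log2 scale (SE 0.13, edgeR adjusted p 0.0429). This call was lost in 7 of the 10 fits that left out 1 library of the comparison, with edgeR adjusted p of 0.0557, 0.0819, 0.0899 and 0.0524 without 3x4Gy library 1, 3, 4 and 6, and of 0.0884, 0.0939 and 0.136 without 3x0Gy library 1, 3 and 4. It was also lost with no filter (0.131), with the covariate above (0.0541) and with only the compared groups in the fit (0.180).

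After 1x20Gy the level of mt-Nd1 averaged 1305 ± 46.7 CPM at day 5, against 1487 ± 87.8 CPM in 1x0Gy, and 615 ± 73.2 CPM at day 13, against 700 ± 126 CPM in 1x0Gy. The log2 fold changes were -0.19 on both days, with edgeR adjusted p of 0.421 and 0.438. The regimens' responses differed by -0.22 for mt-Nd1, 3x4Gy minus 1x20Gy, with an adjusted p of 0.834.

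Thus after 3x4Gy 2 of the 27 tested members were lower and 0 higher, where 7.09% of all 12021 tested genes were called lower and 5.2% higher. Over the 11 protein-coding genes tested the median log2 fold change was -0.40, with 3 above 0, and over all tested genes it was -0.0040. Without the filter the median of the 13 was -0.41. mt-Cytb and mt-Co3 were the 2 members whose irradiated libraries all lay below the mocks (5.67% of genes did so), and mt-Tg the 1 whose libraries all lay above (3.91%). mt-Co3, an uncalled subunit of complex IV and 1 of the 5 low rows, was 1.00 CPM at the lowest and 3.44 at the highest after 3x4Gy, against 4.18, 4.09, 4.62 and 4.96 CPM in 3x0Gy (log2 fold change -0.76, SE 0.26, edgeR adjusted p 0.0602).

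The other complex I genes spread far more among libraries. mt-Nd2 ran from 228 to 1225 CPM after 3x4Gy, against 1403, 82.8, 472 and 535 CPM in 3x0Gy, so the mocks spanned a wider range than the irradiated libraries. Its log2 fold change was -0.13 with an SE of 0.52. For mt-Nd4 it was -0.40 (SE 0.26) after 3x4Gy, 0.037 after 1x20Gy at day 5 and -0.25 at day 13, with edgeR adjusted p of 0.322, 0.960 and 0.467. mt-Nd5 gave 0.20, 0.17 and -0.46 in the same order, and mt-Nd6, the only protein gene on the minus strand, gave 0.38, 0.29 and 0.37, with no call for either. Without a known strand setting, reads of mt-Nd6 and of the transcript opposite it could not be told apart.

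mt-Co1, the catalytic subunit of complex IV, was among the steadiest genes measured. It averaged 1382 ± 68.1 CPM after 3x4Gy against 1551 ± 217 CPM in 3x0Gy, 1442 ± 49.8 CPM after 1x20Gy at day 5 against 1499 ± 150 CPM in 1x0Gy, and 867 ± 74.1 CPM after 1x20Gy at day 13 against 1007 ± 72.7 CPM in 1x0Gy. Its log2 fold changes were -0.17, -0.056 and -0.22, with edgeR adjusted p of 0.337, 0.822 and 0.231. The pooled SD within groups was 0.117 on the log2 scale, and 0.164% of the 10962 genes tested on both days had a smaller one. For mt-Nd1 the SD was 0.193 and for mt-Cytb 0.222, below the median of 0.325 over those genes. For mt-Rnr2 it was 1.10, for mt-Rnr1 1.04, for mt-Nd2 0.854, for mt-Atp8 0.784 and for mt-Nd5 0.726, each above that of at least 95.6% of genes.

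mt-Co2, the copper-binding subunit of complex IV, gave log2 fold changes of -0.55 after 3x4Gy, -0.17 after 1x20Gy at day 5 and -0.58 at day 13 (edgeR adjusted p 0.182, 0.752 and 0.0842). It was 5.42 to 8.70 CPM after 1x20Gy at day 13, against 10.7, 7.82, 10.9 and 11.1 CPM in 1x0Gy, and 1 mock lay within the irradiated range. mt-Atp6, a subunit of the ATP synthase proton channel, gave -0.55, -0.28 and 0.073 (0.205, 0.608 and 0.944).

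mt-Atp8, the other ATP synthase subunit of the mitochondrial genome, has none of its 75-base windows in a listed transcript outside that genome. It lies at chrM:7766-7969, inside the stretch that is also present on chromosome 1. Only transcripts were searched, so a nuclear copy of mt-Atp8 without a listed transcript would not have been found. The same limit holds for the tRNA genes mt-Ts1, mt-Td, mt-Tk, mt-Tg and mt-Tr, which lie in that stretch too. At day 13 mt-Atp8 was 14.2 CPM at the lowest, 22.0 at the median and 83.3 at the highest after 1x20Gy, against 96.5, 108, 25.9 and 53.1 CPM in 1x0Gy. Its log2 fold change was -1.04 (SE 0.44, edgeR adjusted p 0.160). The high irradiated values were 56.0 CPM in library 2 and 83.3 CPM in library 5, the 2 libraries that were also high in rRNA.

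**Figure D3:**
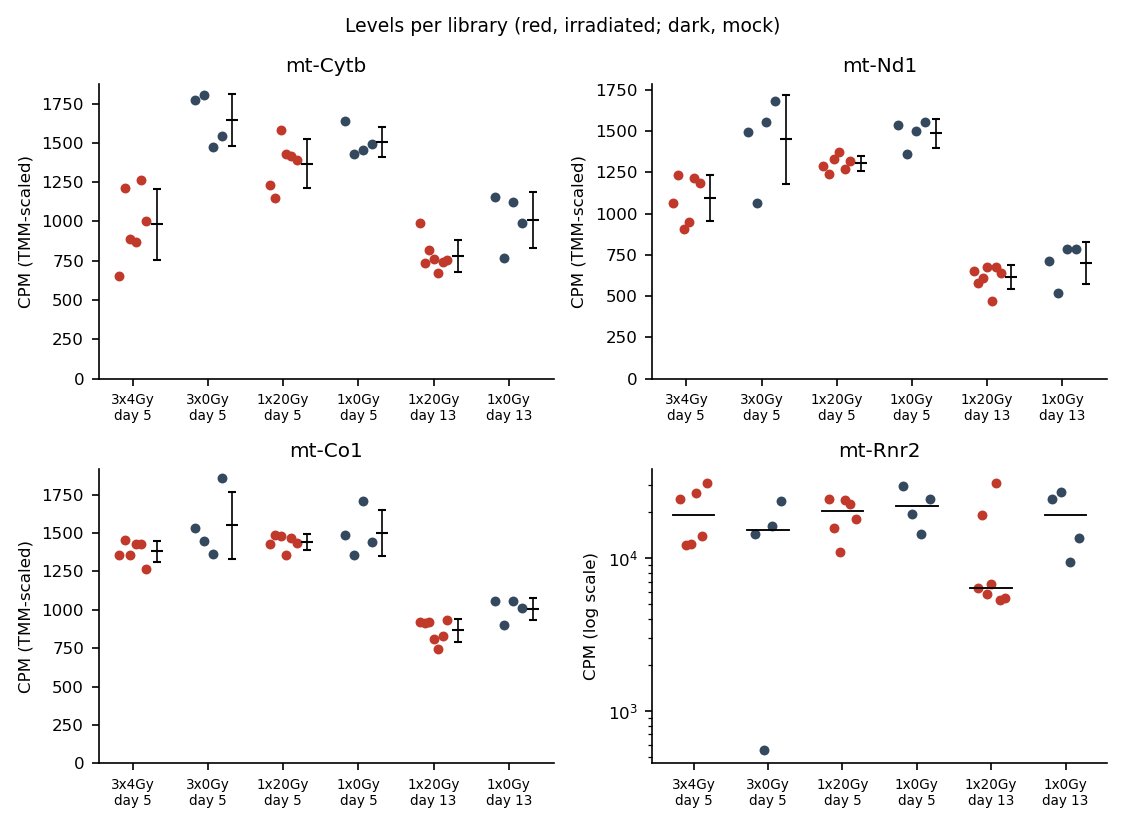
Level of mt-Cytb, mt-Nd1 and mt-Co1 (CPM, points are libraries, bars are mean ± SD) and of mt-Rnr2 (CPM on a log axis, bars are medians) in the 6 groups, with irradiated groups in red left of their mocks in dark. The 6 libraries of 3x4Gy lie at 656 to 1261 CPM for mt-Cytb, below all 4 of 3x0Gy, while mt-Rnr2 runs from 555 CPM in a mock to 31101 CPM in an irradiated library.

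mt-Rnr1 and mt-Rnr2 encode the RNAs of the small and large subunits of the mitochondrial ribosome. After 3x4Gy mt-Rnr2 was 12237 CPM at the lowest, 19147 at the median and 31101 at the highest, against 14263, 555, 16187 and 23545 CPM in 3x0Gy. At day 13 it was 6356, 19183, 5777, 6728, 30699, 5287 and 5432 CPM after 1x20Gy, against 24472, 27005, 9368 and 13504 CPM in 1x0Gy. Both comparisons overlapped, and at day 13 library 2 of 1x20Gy lay among the mocks and library 5 above them, while the other 5 lay below all 4 mocks.

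The log2 fold changes of mt-Rnr2 were 0.56 (SE 0.53) after 3x4Gy, -0.19 after 1x20Gy at day 5 and -0.71 (SE 0.47) at day 13, with edgeR adjusted p of 0.507, 0.875 and 0.392. mt-Rnr1 gave 0.81, -0.49 and -0.82, with adjusted p of 0.333, 0.635 and 0.313. Counts of mt-Rnr2 per count of mt-Rnr1 averaged 3.03 after 3x4Gy against 2.80 in 3x0Gy, and 3.18 after 1x20Gy at day 13 against 3.10 in 1x0Gy. Whether the libraries were prepared by poly(A) selection or by rRNA removal is not given in the sources used here, and the part of library preparation in the rRNA spread was not tested.

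In 1x20Gy at day 5, 0 of the 27 tested members were called by edgeR, where 3.67% of the 12021 genes tested were called higher and 4.88% lower. No member's groups were free of overlap, where those of 5.44% of genes did not overlap with the irradiated libraries higher and those of 6.07% with them lower. The 3 class medians of the log2 fold change were -0.14 for protein-coding genes, -0.34 for the rRNAs and -0.0034 for tRNAs, against 0.022 over all genes. No member had an unadjusted p below 0.05 in edgeR's test, and DESeq2 and limma voom also called 0.

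tRNA genes, read out at low counts, gave the calls of day 13. mt-Tc was 5.28 CPM at the lowest, 9.39 at the median and 15.2 at the highest after 1x20Gy, against 3.37, 0.809, 1.05 and 2.54 CPM in 1x0Gy. These are 17 to 46 counts per library after 1x20Gy and 3 to 11 in 1x0Gy, and the groups did not overlap. mt-Tc rose by a log2 fold change of 2.35 (SE 0.37, edgeR adjusted p 0.00176).

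mt-Tn, next to it, was 4.86 CPM at the lowest, 6.22 at the median and 7.81 at the highest after 1x20Gy, against 1.53, 3.78, 3.34 and 3.46 CPM in 1x0Gy. The groups did not overlap, and mt-Tn rose by 1.04 on the log2 scale (SE 0.27, edgeR adjusted p 0.0234). mt-Tm was 13.5 CPM at the lowest, 15.4 at the median and 23.7 at the highest after 1x20Gy, against 13.2, 9.44, 8.57 and 10.4 CPM in 1x0Gy. Here too no mock reached the lowest irradiated library, and the log2 fold change was 0.74 (SE 0.20, edgeR adjusted p 0.0323). mt-Tq was 15.97 CPM at the lowest, 20.8 at the median and 32.3 at the highest after 1x20Gy, against 17.2, 10.2, 8.57 and 15.7 CPM in 1x0Gy, with 1 mock inside the irradiated range (log2 fold change 0.83, SE 0.24, edgeR adjusted p 0.0465).

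**Figure D4:**
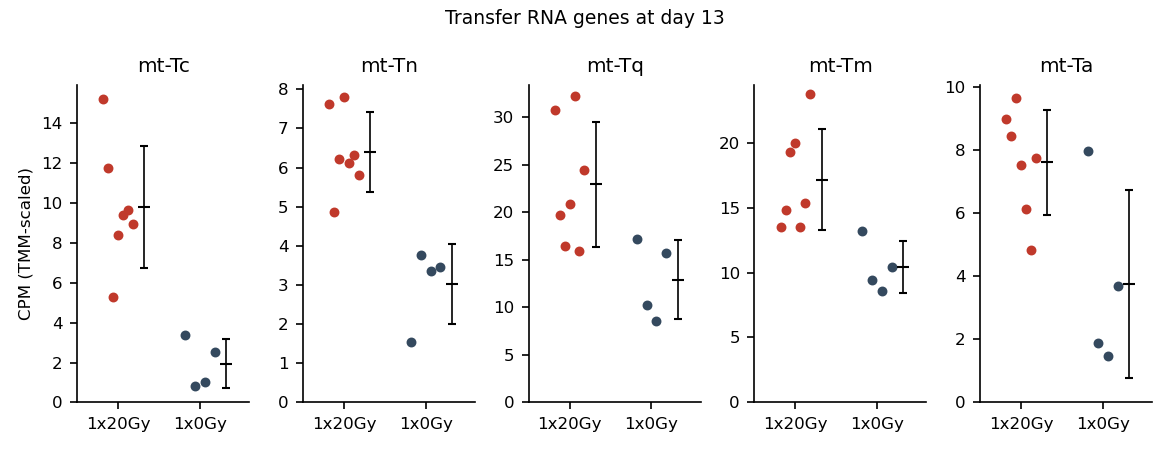
Level of mt-Tc, mt-Tn, mt-Tq, mt-Tm and mt-Ta at day 13 (CPM, points are libraries, bars are mean ± SD), with 1x20Gy left of 1x0Gy in each pair. For mt-Tc the irradiated libraries lie at 5.28 CPM or above and the mocks at 3.37 CPM or below, and mt-Ta, which was not called, overlaps.

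At day 13, 4 of the 23 tested members were higher and 0 lower, where 4.22% of the 11071 tested genes were called higher and 3.83% lower. All 4 were tRNAs, out of 10 tested. Of these, mt-Tc and mt-Tn passed the filter only with libraries of 1x20Gy, the group where they were high, so their entry was not independent of the result. With no filter both were still called (edgeR adjusted p 3.42e-05 and 0.0475). All 10 tested tRNAs had a log2 fold change above 0, with a median of 0.90 against 0.0052 over all tested genes. Without the filter 20 of 22 did, with a median of 1.04. mt-Tc, mt-Tm, mt-Tn and mt-Tp lay above every mock in every irradiated library, where 3.31% of tested genes did, and so did mt-Tv, which had too few counts to be tested. No tested member lay below every mock, where 3.97% of genes did.

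The other 6 tested tRNAs were not called, with log2 fold changes between 0.56 and 1.07, below the 2.35 of mt-Tc. mt-Tp (proline) gave 0.77 (SE 0.24, edgeR adjusted p 0.0618), mt-Ta (alanine) 1.07 (SE 0.37, 0.0901), mt-Td (aspartate) 0.71 (0.0738), mt-Tt (threonine) 1.01 (0.115), mt-Te (glutamate) 0.97 (0.134) and mt-Tw (tryptophan) 0.56 (0.586). Of the 6 tested tRNA genes on the minus strand 3 were called, with a median of 1.01, and of the 4 on the plus strand 1 was, with a median of 0.72. Reads on a minus-strand tRNA gene could not be told apart from reads of the plus-strand precursor that runs through it, nor mature tRNA from uncut precursor on either strand.

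Of the 4 calls, that of mt-Tc held in every fit run, with log2 fold changes of 2.11 to 2.70 when 1 library was left out. The call of mt-Tn was lost without 1x0Gy library 1 (edgeR adjusted p 0.0689) or 3 (0.0702). That of mt-Tm was lost without 1x20Gy library 3, 4 or 7 (0.0589, 0.0615 and 0.0628) or 1x0Gy library 2, 3 or 4 (0.0916, 0.130 and 0.0774). That of mt-Tq was lost without 1x20Gy library 1, 4, 5 or 7 (0.0745, 0.0683, 0.0507 and 0.0743) or 1x0Gy library 2, 3 or 4 (0.133, 0.179 and 0.0572). By library size alone, without TMM, 1 member was higher (mt-Tc) and 4 were lower (mt-Atp8, mt-Co1, mt-Co2 and mt-Cytb), against 4 higher and 0 lower with TMM. Over all 11071 genes the same scaling gave 222 higher and 1311 lower, against 467 and 424 with TMM. That scaling moved the median of all genes by -0.225 at day 13, and by -0.104 and -0.109 in the 3x4Gy and 1x20Gy comparisons of day 5.

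Beside these day 13 values, reads outside genes were 25.8% ± 3.67 after 1x20Gy and 20.5% ± 2.59 in 1x0Gy. The clone-named symbol RP23-81C12.3 took 22.4% ± 4.19 of gene counts after 1x20Gy and 9.25% ± 6.40 in 1x0Gy. With reads outside genes as a covariate, mt-Tc gave 2.34 (edgeR adjusted p 0.00705), while mt-Tn, mt-Tm and mt-Tq were not called (0.0595, 0.0815 and 0.380) and mt-Rnr1 and mt-Rnr2 were called lower, with log2 fold changes of -1.69 and -1.70. mt-Atp8 and mt-Nd5 were also called lower in that fit, at -2.08 (edgeR adjusted p 0.00597) and -1.20 (0.0169), and mt-Td and mt-Tt higher, at 1.00 and 1.59. It called 628 genes higher and 553 lower over all 11071.

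At day 5 the same tRNAs were not called. mt-Tc was 1.48 to 6.52 CPM after 3x4Gy, against 1.36 to 7.19 CPM in 3x0Gy, and 0.563 to 5.04 CPM after 1x20Gy, against 1.61 to 4.08 CPM in 1x0Gy, with log2 fold changes of 0.025 and -0.25. mt-Tn gave 0.81 (edgeR adjusted p 0.176) after 3x4Gy and -0.60 (0.354) after 1x20Gy. Over the 14 tested tRNAs the median was 0.30 after 3x4Gy, with 11 above 0. In that comparison mt-Tg (glycine) was 1.21 to 3.93 CPM after 3x4Gy, against 0.349, 0.341, 0.856 and 0.930 CPM in 3x0Gy. This was 7 to 18 counts after 3x4Gy against 1 to 6 in 3x0Gy, without overlap but not called (1.72, SE 0.60, edgeR adjusted p 0.0631). mt-Tv (valine) gave 1.16 (SE 0.42, 0.0699).

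mt-Ti (isoleucine) and mt-Tl1 (leucine) were tested at day 5 alone and were not called. mt-Ti was 0.637 to 2.62 CPM after 1x20Gy, against 2.40 to 5.19 CPM in 1x0Gy, and the groups overlapped. Its log2 fold changes were -0.25 (edgeR adjusted p 0.758) after 3x4Gy and -0.87 (0.239) after 1x20Gy, the lowest of the members in the comparison at 1x20Gy. mt-Tl1 gave 0.67 (0.504) after 3x4Gy and 0.012 (0.995) after 1x20Gy.

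**Figure D5:**
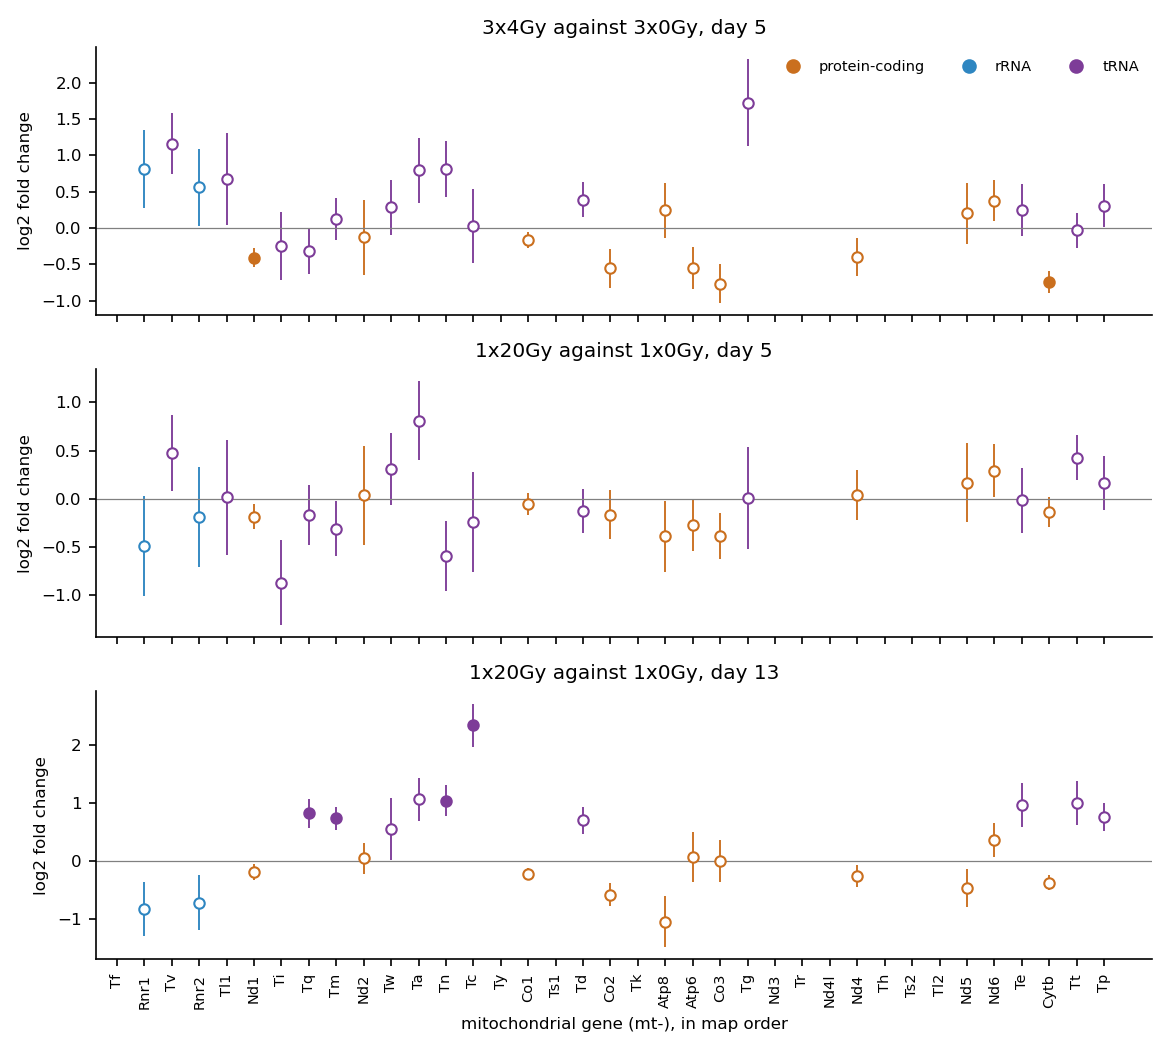
Log2 fold change of each tested member with its SE (bars), irradiated over mock, in gene order along the mitochondrial genome, for 3x4Gy and 1x20Gy at day 5 and 1x20Gy at day 13. Filled points were called: mt-Cytb and mt-Nd1 below 0 after 3x4Gy, none after 1x20Gy at day 5, and mt-Tc, mt-Tn, mt-Tm and mt-Tq above 0 at day 13.

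Whether the responses to 1x20Gy differed between the days was tested in 1 fit of all 31 libraries, as the day 13 minus the day 5 fold change. The difference was 2.62 (SE 0.69) for mt-Tc, 1.67 (SE 0.49) for mt-Tn, 1.07 for mt-Tm and 1.02 for mt-Tq, with edgeR adjusted p of 0.0759, 0.0995, 0.182 and 0.281. In this test edgeR called 0 members, where 0.423% of 12061 genes were called. 5 of the 27 tested members had an unadjusted p below 0.05, and DESeq2 called 2 and limma voom 0. Between regimens at day 5 no gene at all was called by edgeR (714 of 12021 had an unadjusted p below 0.05, and DESeq2 called 1 and limma voom 0). mt-Tn gave 1.41 there, 3x4Gy minus 1x20Gy, with an adjusted p of 0.804. Between the mocks, 3x0Gy against 1x0Gy, edgeR also called 0 genes, with 667 at an unadjusted p below 0.05, 2 by DESeq2 and 0 by limma voom.

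Nuclear genes for the same machinery moved little. Of 196 genes in 9 lists (subunits of the 5 complexes, mitochondrial ribosome proteins, transcription and mtDNA maintenance, RNA processing, and regulators of biogenesis), 194 were in the tables. After 3x4Gy 1 of 190 tested was higher and 2 lower, with a median log2 fold change of -0.079. After 1x20Gy 1 of 190 was lower at day 5 and 0 higher, with a median of 0.024, and 2 of 185 were lower at day 13 and 0 higher, with a median of -0.12. In each comparison and direction the share called was below the share of all tested genes given above.

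The genes called were from different lists. After 3x4Gy Gabpa, a subunit of the transcription factor NRF-2 (GABP), averaged 27.2 ± 7.97 CPM against 16.9 ± 4.99 CPM in 3x0Gy and rose (0.68, SE 0.21, edgeR adjusted p 0.0376). Ndufc2, a complex I subunit, averaged 173 ± 26.6 CPM after 3x4Gy against 285 ± 154 CPM in 3x0Gy and fell (-0.72, 0.0394). Hsd17b10, a subunit of the nuclease complex that cuts the 5′ ends of mitochondrial tRNAs, fell to 19.7 ± 3.89 CPM after 3x4Gy, against 27.997 ± 7.58 CPM in 3x0Gy (-0.49, 0.0478). Mrpl38, of the large mitochondrial ribosomal subunit, was the gene lower after 1x20Gy at day 5 (23.0 ± 3.33 CPM, against 33.1 ± 5.59 CPM in 1x0Gy, log2 fold change -0.53, SE 0.15, edgeR adjusted p 0.0305).

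Lower at day 13 were Uqcrc2, a core protein of complex III, and Fastkd3, a mitochondrial RNA-binding protein of the FASTK family. Uqcrc2 averaged 54.5 ± 9.28 CPM after 1x20Gy against 81.4 ± 20.6 CPM in 1x0Gy (-0.58, edgeR adjusted p 0.0406). Fastkd3 averaged 21.2 ± 3.90 CPM after 1x20Gy against 33.1 ± 4.09 CPM in 1x0Gy (-0.64, 0.0226). The regulators Tfam and Polrmt, which package and transcribe mitochondrial DNA, and Lrpprc and Slirp, which stabilise its mRNAs, were not called in any of the 3 comparisons. Nearest was Slirp at day 13, with 39.8 ± 8.76 CPM after 1x20Gy and a log2 fold change of -0.51 (edgeR adjusted p 0.0712).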

How the data were processed

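The deposited values are counts of reads per gene, 1 table per library with 38406 symbols and 5 summary lines. Per the submitters' processing notes, the builds were GRCm38 and mm10, and the tools were HTSeq (0.9.1), HISAT2 (2.0.4), cutadapt (1.5) and also bcl2fastq (2.20.0.422). The annotation, the strand setting, the overlap mode and the library kit are not given in the sources used here. RNA integrity numbers were above 8.5, per the labels' protocols. Summary lines stayed out of library sizes. Gene counts ran from 2641229 to 7541144 per library, and limits from counts cover counting error only.

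The quasi-likelihood test of edgeR 4.0.16 (R 4.3.3) was run two-sided with Benjamini-Hochberg adjustment over all genes tested, after TMM scaling. filterByExpr, run by group, kept genes with a total of at least 15 counts and a CPM worth 10 counts in a library of median size. That CPM had to be reached in as many libraries as the smallest group holds. A gene could thus pass through the group where it is high, and mt-Tc and mt-Tn at day 13 passed only with their 1x20Gy libraries. The 20 day 5 libraries shared 1 fit, the 11 day 13 libraries another, and the comparison of days used all 31. The standard error is the absolute log2 fold change divided by the square root of the test's F statistic. Replicate libraries differed beyond counting error (chi-square per degree of freedom 3.42 to 62.7 within groups). Gene positions, sequences and shared windows came from GENCODE M21 (GRCm38). Alternatives were other scalings, no filter, DESeq2 1.42.0, limma 3.58.1 voom, a covariate, a block of title numbers, only the compared groups, and each library left out. Shares carry no test.

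On simulated data with 100 genes changed 2-fold and 100 changed 4-fold, 64% and 92% were recovered for 3x4Gy, 74% and 95% for 1x20Gy at day 5, and 74% and 93% at day 13. For the difference of regimens 30% and 70% were recovered, and for that of days 35% and 85%. Of the calls on simulated data, 4.29% were false for 3x4Gy, 6.11% for 1x20Gy at day 5 and 7.73% at day 13. For the differences of regimens and of days 6.54% and 4% were false. The changed genes were drawn at random from all tested genes, so recovery was not measured for the members, many of which had low counts or a wide spread.

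The members and the nuclear and marker lists were chosen with earlier results of these data known. All 15 protein-coding and rRNA genes and each tRNA gene tested in a fit are described. Of the nuclear lists, named genes were the 4 called per direction with the largest change and at least 5 CPM, plus Tfam, Polrmt, Lrpprc and Slirp. Of the nuclear entries, 23 were matched by an older symbol.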

Additional observations from a re-analysis of the deposited data

Results flagged for a closer look

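In 178 groups of 4 to 7 libraries checked for a single library far from the others, 6 were picked out, and chance alone picks about 1 in 20 groups. Library 1 of 3x4Gy was high for mt-Atp6, at 4.51 CPM where the other 5 had 1.89 to 2.75 CPM, and low for mt-Co3, at 1.00 CPM where the other 5 had 2.66 to 3.44 CPM. Library 1 of 1x0Gy at day 5 was high for mt-Nd4, at 1545 CPM where the other 3 had 847 to 890 CPM, and for the protein-coding share of gene counts, at 0.802% where the other 3 had 0.617% to 0.644%. Library 4 of 1x20Gy at day 5 was high for mt-Tt, at 8.71 CPM where the other 5 had 5.52 to 6.44 CPM. Library 2 of 1x0Gy at day 13 was low for mt-Co2, at 7.82 CPM where the other 3 had 10.7 to 11.1 CPM.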

How the results depend on the processing

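The call of mt-Tc at day 13 held in every fit run, and that of mt-Cytb after 3x4Gy in all but the one with the share of reads outside genes as a covariate. For 3x4Gy the 2 members called became 1 with no filter, 1 with the block of title numbers, 1 with only the compared groups and 0 with the covariate, and 1 to 4 when a library was left out. At day 13 the 4, beside 467 genes higher and 424 lower over all tested, became 7 in DESeq2 (718 and 547 over all genes), 7 with the covariate (628 and 553) and 8 with the block (582 and 482), and 1 (without 1x0Gy library 3) to 8 (without 1x20Gy library 5) when a library was left out. These day 13 counts hold both directions. Called lower in some fit without 1 library were mt-Atp8, mt-Rnr2 and mt-Cytb, with lowest edgeR adjusted p of 0.0226, 0.0403 and 0.0442. Called higher in some such fit, beside the 4, were mt-Ta, mt-Td, mt-Te, mt-Tp and mt-Tt, with 0.0115, 0.0326, 0.0401, 0.0412 and 0.0427. For the difference of days the 0 became 2 in DESeq2, 1 with no filter and 2 with only the compared groups. For 1x20Gy at day 5, the difference of regimens and the mocks it was 0 in every fit.

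Whether the numbers in the titles pair the samples was not settled. Same-numbered libraries had correlations of -0.03 to 0.40 after 3x4Gy. After 1x20Gy these were -0.26 to 0.21 at day 5 and -0.03 to 0.33 at day 13. The same-numbered mock was the best correlated for 3x4Gy libraries 1, 2 and 4. It also was for 1x20Gy libraries 2 and 3 at day 5 and 2, 3 and 4 at day 13. Another mock was the best correlated for 3x4Gy library 3, and for 1x20Gy libraries 1 and 4 at day 5 and 1 at day 13. With the replicate block mt-Nd1 had an edgeR adjusted p of 0.0777 after 3x4Gy, and mt-Tm and mt-Tn had 0.0552 and 0.0647 at day 13. mt-Tq was lost with upper quartile scaling (0.0562), by library size alone (0.0980) and with TMM without the mitochondrial rows and RP23-81C12.3 (0.05004), and mt-Tm (0.103) and mt-Tn (0.0661) by library size alone.

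Nuclear genes called after 3x4Gy (3) became 5 with upper quartile scaling, 5 by library size, 6 in DESeq2, 1 in limma voom, 0 with the covariate and 0 with only the compared groups, and 1 to 6 without a library. After 1x20Gy at day 5 (1) they became 3 with upper quartile scaling, 6 by library size, 5 in DESeq2, 2 in limma voom, 4 with the covariate, 2 with the block, 7 with only the compared groups and 2 with TMM without the mitochondrial rows, and 0 to 2 without a library. At day 13 (2) they became 5 with upper quartile scaling, 33 by library size, where 222 genes were higher and 1311 lower over all tested, 6 in DESeq2 and 5 with the covariate, and 0 to 8 without a library. Over all genes tested, those called higher and lower in the 3x4Gy comparison (5.2% and 7.09% with TMM) were 450 and 1110 with upper quartile scaling, 325 and 1084 by library size, 811 and 1054 in DESeq2, 582 and 837 in limma voom, 254 and 414 with the covariate and 233 and 469 with only the compared groups. For 1x20Gy at day 5, 441 and 587, they were 317 and 745, 210 and 947, 593 and 784, 453 and 640, 315 and 422, and 705 and 721 in the same order. At day 13 upper quartile scaling gave 384 and 512. The tRNA share at day 13, 0.00410 percentage points higher after 1x20Gy, was 0.00654 higher with RP23-81C12.3 out of the total. The cause of these shifts was not tested.

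No called member changed sign, and log2 fold changes that were not called turned in 112 fits of 28 results, 60 of them without 1 library.
With the share of reads outside genes as a covariate they were, after 3x4Gy mt-Atp8 -0.25, mt-Nd5 -0.45, mt-Nd6 -0.11, mt-Rnr2 -0.22, mt-Tc -0.30, mt-Te -0.21, mt-Tm -0.15 and mt-Tw -0.11, and after 1x20Gy at day 5 mt-Nd2 -0.75, mt-Nd5 -0.51, mt-Nd6 -0.17, mt-Tg -0.47, mt-Tl1 -0.51 and mt-Tw -0.16, and after 1x20Gy at day 13 mt-Nd1 0.083, mt-Nd2 -0.29 and mt-Nd6 -0.21. By library size alone they were, after 3x4Gy mt-Tc -0.086, and after 1x20Gy at day 5 mt-Nd2 -0.12, mt-Nd4 -0.10, mt-Tg -0.13 and mt-Tl1 -0.12, and after 1x20Gy at day 13 mt-Atp6 -0.15, mt-Co3 -0.23 and mt-Nd2 -0.13. With upper quartile scaling they were, after 3x4Gy mt-Tc -0.047, and after 1x20Gy at day 5 mt-Nd2 -0.035, mt-Nd4 -0.028, mt-Tg -0.053 and mt-Tl1 -0.056, and after 1x20Gy at day 13 mt-Co3 -0.035. With the block of title numbers they were, after 3x4Gy mt-Tc -0.049 and mt-Tt 0.0405, and after 1x20Gy at day 5 mt-Nd2 -0.17, mt-Nd4 -0.0087, mt-Te 0.081, mt-Tg -0.19 and mt-Tl1 -0.16. With no filter they were, after 1x20Gy at day 5 mt-Nd2 -0.016, mt-Nd4 -0.0051, mt-Tg -0.033 and mt-Tl1 -0.028, and after 1x20Gy at day 13 mt-Co3 -0.0074. By limma voom they were, after 3x4Gy mt-Nd2 0.21 and mt-Tc -0.044, and after 1x20Gy at day 5 mt-Tl1 -0.026, and after 1x20Gy at day 13 mt-Co3 -0.074. With RLE size factors they were, after 1x20Gy at day 5 mt-Tg -0.0045 and mt-Tl1 -0.00301. With TMM scaling without the mitochondrial rows and RP23-81C12.3 they were, after 1x20Gy at day 5 mt-Tg -0.013 and mt-Tl1 -0.012. With the compared groups alone they were, after 1x20Gy at day 5 mt-Tl1 -0.0043.
Ranges without 1 library were, after 3x4Gy mt-Atp8 -0.035 to 0.46, mt-Nd2 -0.51 to 0.64, mt-Nd5 -0.0796 to 0.53, mt-Tc -0.21 to 0.61, mt-Ti -0.60 to 0.0899, mt-Tm -0.0397 to 0.29 and mt-Tt -0.17 to 0.082, and after 1x20Gy at day 5 mt-Co1 -0.11 to 0.011, mt-Nd2 -0.12 to 0.32, mt-Nd4 -0.10 to 0.30, mt-Tc -0.60 to 0.015, mt-Td -0.25 to 0.013, mt-Te -0.26 to 0.15, mt-Tg -0.35 to 0.61, mt-Tl1 -0.36 to 0.31 and mt-Tp -0.047 to 0.37, and after 1x20Gy at day 13 mt-Atp6 -0.28 to 0.64, mt-Co3 -0.16 to 0.18 and mt-Nd2 -0.20 to 0.46.

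mt-Tc, mt-Tn and mt-Tg rest on few counts per library, which limits their precision.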
